A study of Mus musculus with 24 samples.

Results

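The expression of 42 genes that build, regulate or serve autophagy, mitophagy and the lysosome was examined in mouse liver, in wild-type (WT) mice and in Ogg1-/- mice, which lack the DNA repair enzyme 8-oxoguanine DNA glycosylase. The genes were chosen by name. A list of 44 symbols was matched to the array annotation, 42 had a probe set with that single symbol, and Optn and Park2 had none and are not analysed here. Where several probe sets matched, the gene was represented by the brightest over all arrays, so that the 42 genes stand among 19938 genes and 35556 probe sets measured. The data are 24 Mouse Gene ST arrays, each of 1 liver, in 4 groups of 6 male mice: WT on chow, Ogg1-/- on chow, WT on a high-fat diet (HFD) and Ogg1-/- on the HFD. All mice carried the C57BL6 strain label, were housed singly and ate their diet freely for 10 weeks, and they were 12 weeks old at its start according to the published methods, or 10 weeks old according to the labels. The deletion was present in every tissue, and the line had been backcrossed 21 times, so that DNA flanking Ogg1 may still come from the strain in which the deletion was made. Among the 42 genes only Atg7 lies within 10 Mb of Ogg1. For Atg7, flanking DNA and the loss of OGG1 cannot be told apart as sources of a difference.

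Autophagy is the route by which a cell wraps cytoplasm, protein aggregates or whole organelles in a double membrane, the autophagosome, and delivers them to the lysosome for breakdown. The ULK kinase complex starts the process, a lipid kinase complex marks the membrane, ATG9 and ATG2 supply and transfer lipid, and an enzyme cascade attaches LC3 and GABARAP proteins to the growing membrane, where receptors such as SQSTM1 and NBR1 dock their cargo. Mitophagy is the same disposal of mitochondria, marked by PINK1 or by receptors such as BNIP3 and BNIP3L, and the transcription factors TFEB and TFE3 switch on genes of autophagy and of the lysosome. In liver, autophagy yields amino acids and lipids in fasting, follows the time of day, and takes part in the turnover of lipid droplets and mitochondria.

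Signals are given on the log2 scale, on which a difference of 1 is a doubling, and a gene passed when its p from limma, adjusted by Benjamini and Hochberg over all 35556 probe sets, was under 0.05. The Ogg1 probe set itself averaged 6.47 in WT and 5.93 in Ogg1-/- livers on chow (adjusted p = 3.2e-05, limma), and 6.46 and 5.87 on the HFD (adjusted p = 2.9e-05, limma), with no overlap between genotypes in either diet. The 9 measured hepatocyte markers, among them Alb and Ttr, had summed linear signals between 108335 and 134189 in every liver. Correlations between arrays ran from 0.952 to 0.993. The array that stood farthest apart was Ogg1-/- chow replicate 1, which was the lowest of all 24 livers for 14 of the 42 genes and the highest for 9. It was the lowest or highest of its own 6 livers for 39 of the 42 genes, against 3 to 24 of 42 for the other arrays. It received a weight of 0.161 in a fit with array weights, and the counts over the 42 genes are given below with and without it.

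On the HFD, 22 of the 42 genes differed between the genotypes, 12 higher and 10 lower in Ogg1-/- livers, and 29 had an unadjusted p under 0.05. In percent of all probe sets, 10.3% passed as higher and 9.55% as lower in this comparison. With 1 probe set per gene the shares were 11.9% and 11.8%. Of the 42 genes, 13 had HFD groups that did not overlap, against 12.1% of all probe sets. The changes were small. Only Rb1cc1, Nbr1 and Ulk2 passed with a fold of at least 1.5, all lower, where 5.89% of probe sets did so in either direction. The median difference over the 42 genes was -0.01, beside 0.03 over all genes. Without Ogg1-/- chow replicate 1, which enters the HFD comparison only through the shared estimate of spread, 29 genes passed, 15 higher and 14 lower. In that fit 9215 of all 35556 probe sets passed in either direction, against 7045 with all arrays.

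**Figure D1:**
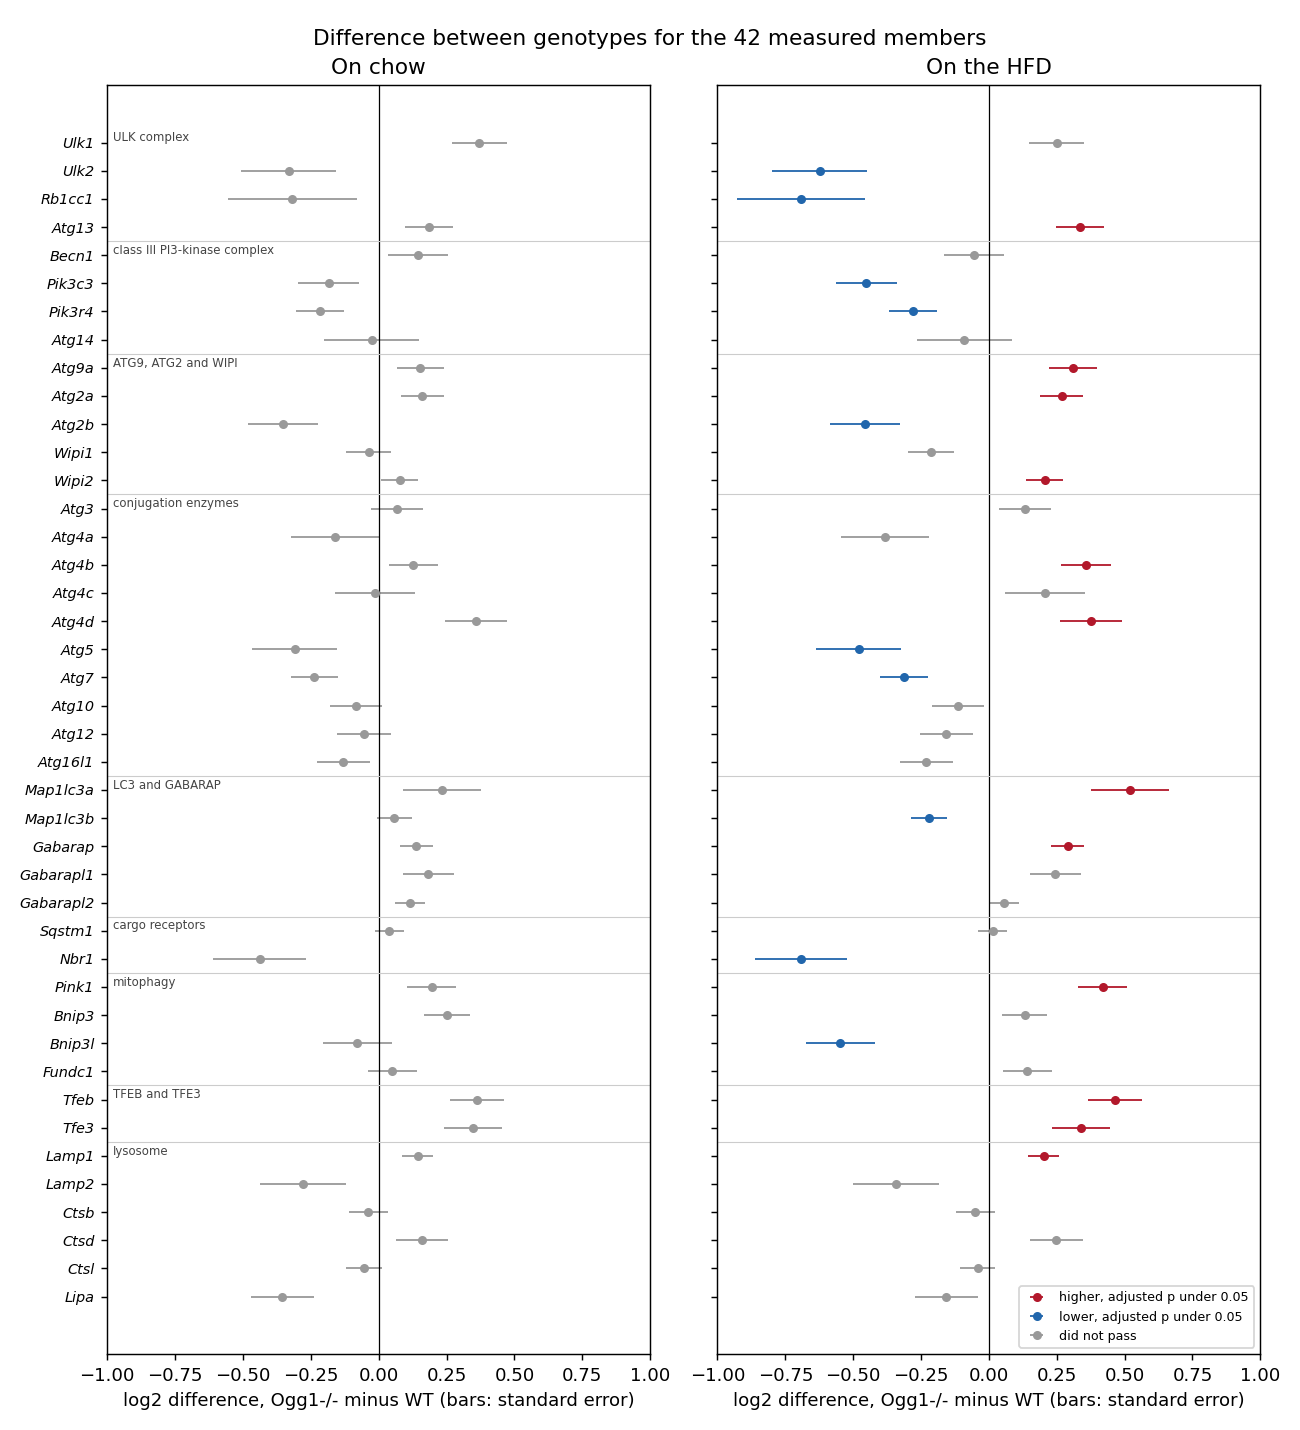
The log2 difference between Ogg1-/- and WT livers (horizontal axis, points, with standard errors as bars) of the 42 measured genes on chow (left) and on the HFD (right), 6 livers per group, with the genes in the order of their roles. On the HFD 12 genes passed as higher (red) and 10 as lower (blue), and on chow none passed.

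The ULK complex, the kinase assembly that starts autophagy, held genes of both directions. Ulk2, which encodes a catalytic kinase of the complex, ran from 8.76 through a median of 8.90 to 9.40 in WT livers on the HFD and from 8.17 through 8.36 to 8.55 in Ogg1-/- livers. All 6 Ogg1-/- livers lay below the lowest WT liver. The difference was -0.62 (standard error (SE) 0.18, 1.54-fold lower, limma adjusted p = 0.0159). Rb1cc1, which encodes FIP200, the scaffold of the complex, ran from 6.03 through 6.84 to 7.02 in WT and from 5.44 through 6.10 to 6.44 in Ogg1-/- livers. These groups overlapped, and both spread widely. Its difference of -0.69 (SE 0.24, 1.62-fold lower, limma adjusted p = 0.0409) lost its call when any of 8 of the 12 HFD arrays was left out. Atg13, the adaptor that links the kinase to its scaffold, went the other way, from 9.38 through 9.66 to 9.98 in WT and from 9.81 through 10.02 to 10.14 in Ogg1-/- livers, a difference of 0.34 (SE 0.09, limma adjusted p = 0.0111) between groups that overlapped in part. Ulk1, the paralog of Ulk2 and the better known kinase of the pair, had a difference of 0.25 that did not pass (SE 0.10, limma adjusted p = 0.0843), and it passed without Ogg1-/- chow replicate 1 (adjusted p = 0.0304).

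In the class III PI3-kinase complex, which makes the lipid phosphatidylinositol 3-phosphate on the forming membrane, 2 of 4 genes fell and none rose. Pik3c3, the gene of the lipid kinase VPS34, ran from 6.95 through 7.23 to 7.38 in WT livers on the HFD and from 6.58 through 6.71 to 6.96 in Ogg1-/- livers. Only the highest Ogg1-/- liver reached the lowest WT liver. The difference was -0.45 (SE 0.11, 1.37-fold lower, limma adjusted p = 0.00786). Pik3r4, which encodes the regulatory subunit VPS15, ran from 7.38 through 7.51 to 7.61 in WT and from 7.08 through 7.21 to 7.46 in Ogg1-/- livers, with overlap, and differed by -0.28 (SE 0.09, limma adjusted p = 0.0286), a call lost without any of 6 of the HFD arrays. Becn1, the beclin scaffold that joins the kinase to its partners, and Atg14, which targets the complex to autophagosome formation, had differences of -0.05 (SE 0.11) and -0.09 (SE 0.17) with adjusted p of 0.8 and 0.786 in limma.

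Among the genes of lipid supply and transfer, 3 rose and 1 fell. Atg9a, the gene of the membrane protein whose vesicles seed the autophagosome, ran from 9.32 through 9.49 to 9.67 in WT livers on the HFD and from 9.66 through 9.83 to 9.93 in Ogg1-/- livers, a difference of 0.31 (SE 0.09, limma adjusted p = 0.0159). Only the ends of these groups touched. Atg2a and Atg2b encode related proteins that carry lipid into the growing membrane, and they moved in opposite directions. Atg2a ran from 8.25 through 8.42 to 8.55 in WT and from 8.64 through 8.68 to 8.74 in Ogg1-/- livers, with no overlap and a difference of 0.27 (SE 0.08, limma adjusted p = 0.0189). Atg2b ran from 7.61 through 7.99 to 8.13 in WT and from 7.30 through 7.42 to 7.72 in Ogg1-/- livers, a difference of -0.46 (SE 0.13, limma adjusted p = 0.0159) between groups that overlapped in part. The other probe set of Atg2b differed by -0.57 (limma adjusted p = 0.00757). Wipi2, which reads the lipid mark and recruits the conjugation machinery, ran from 8.83 through 8.99 to 9.19 in WT and from 9.10 through 9.19 to 9.36 in Ogg1-/- livers, with overlap, and differed by 0.21 (SE 0.07, limma adjusted p = 0.0351), whereas its relative Wipi1 had -0.21 and did not pass (SE 0.08, limma adjusted p = 0.0774). The call of Atg2a was lost without WT HFD replicate 6 (limma adjusted p = 0.0521). That of Wipi2 was lost without any of 7 of the HFD arrays and with the 12 HFD arrays fitted alone (limma adjusted p = 0.0633). It was also lost by the methods' t-test with the same adjustment (adjusted p = 0.0561). That plain test is the one the study ran in GeneSifter, and the study's other analysis, in iReport, used limma.

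Of the 10 measured conjugation enzymes, which couple LC3, GABARAP and ATG12 to their targets, 2 rose, 2 fell and 6 did not pass. Atg5, whose protein is joined to ATG12 in the ligase that acts on LC3, ran from 8.72 through 8.76 to 9.01 in WT livers on the HFD and from 7.99 through 8.37 to 8.58 in Ogg1-/- livers. The groups did not overlap. The difference was -0.48 (SE 0.16, 1.39-fold lower, limma adjusted p = 0.0332), and the call was lost without any of 7 of the HFD arrays. Atg7, the activating enzyme at the head of the cascade, ran from 9.00 through 9.19 to 9.29 in WT and from 8.59 through 8.89 to 9.00 in Ogg1-/- livers, a difference of -0.31 (SE 0.09, limma adjusted p = 0.0149) between groups that met only at their ends. Its chow difference was -0.24 (SE 0.09, limma adjusted p = 0.179). Among the ATG4 proteases, which trim LC3 and GABARAP before use and free them afterwards, Atg4b and Atg4d rose. Atg4b ran from 7.91 through 8.18 to 8.33 in WT and from 8.40 through 8.52 to 8.64 in Ogg1-/- livers, with no overlap and a difference of 0.36 (SE 0.09, limma adjusted p = 0.00938). Atg4d ran from 7.44 through 7.71 to 7.86 in WT and from 7.79 through 8.13 to 8.21 in Ogg1-/- livers, a difference of 0.38 (SE 0.11, limma adjusted p = 0.023) whose call was lost without any of 4 of the HFD arrays. The groups of Atg4d overlapped at their ends.

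The remaining 6 conjugation enzymes included a pair whose HFD groups did not overlap although the test was not passed. Atg4a, another of the proteases, ran from 8.35 to 8.53 in WT and from 7.80 to 8.31 in Ogg1-/- livers, a difference of -0.38 (SE 0.16, limma adjusted p = 0.0988). The other Atg4a probe set differed by -0.36 (limma adjusted p = 0.0886). Atg16l1, which places the ligase on the membrane, ran from 7.64 to 7.90 and from 7.46 to 7.59, a difference of -0.23 (SE 0.10, limma adjusted p = 0.0989). Without Ogg1-/- chow replicate 1 the 2 genes had adjusted p of 0.00123 and 0.0181. Atg3, Atg4c, Atg10 and Atg12 had differences between -0.16 and 0.21.

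The LC3 and GABARAP proteins are the tags that are coupled to the autophagosome membrane, and their genes moved in different directions. Map1lc3a ran from 8.61 through 8.89 to 9.14 in WT livers on the HFD and from 9.23 through 9.34 to 9.58 in Ogg1-/- livers, a difference of 0.52 (SE 0.14, 1.43-fold higher, limma adjusted p = 0.0141). Gabarap ran from 12.90 through 12.98 to 13.11 in WT and from 13.23 through 13.30 to 13.34 in Ogg1-/- livers, a difference of 0.29 (SE 0.06, limma adjusted p = 0.00382). In neither gene did the groups overlap. Map1lc3b, which encodes the LC3 protein most often used as the autophagosome marker, fell. It ran from 11.03 through 11.10 to 11.24 in WT and from 10.78 through 10.89 to 10.97 in Ogg1-/- livers, again with no overlap, a difference of -0.22 (SE 0.07, 1.17-fold lower, limma adjusted p = 0.0198). Its other probe set differed by -0.26 (limma adjusted p = 0.0142), and the call of the main one was lost without WT HFD replicate 4 (adjusted p = 0.0531) or Ogg1-/- HFD replicate 1 (adjusted p = 0.0532). Gabarapl1 had a difference of 0.24 (limma adjusted p = 0.0718) and Gabarapl2 of 0.06 (limma adjusted p = 0.537), and neither passed. The other Gabarapl2 probe set, dimmer at a mean of 5.15 against 11.56, differed by -0.06 (limma adjusted p = 0.875).

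Of the cargo receptors, Nbr1 fell and Sqstm1 did not pass. NBR1 binds ubiquitinated cargo and LC3 proteins. Its gene ran from 9.39 through 9.66 to 9.93 in WT livers on the HFD and from 8.63 through 8.96 to 9.18 in Ogg1-/- livers. All 6 Ogg1-/- livers lay below the lowest WT liver, and the difference was -0.69 (SE 0.17, 1.62-fold lower, limma adjusted p = 0.00743). Sqstm1, the gene of the receptor p62, ran from 12.08 to 12.23 in WT and from 11.99 to 12.24 in Ogg1-/- livers, a difference of 0.01 (SE 0.05, limma adjusted p = 0.898).

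Of the 4 measured mitophagy genes, Pink1 rose, Bnip3l fell, and Bnip3 and Fundc1 did not pass. Pink1, the gene of the kinase that flags damaged mitochondria, ran from 9.66 through 9.92 to 10.08 in WT livers on the HFD and from 10.24 through 10.28 to 10.44 in Ogg1-/- livers, a difference of 0.42 (SE 0.09, 1.34-fold higher, limma adjusted p = 0.0038). Bnip3l, which encodes the outer membrane receptor NIX, ran from 11.84 through 11.95 to 12.07 in WT and from 11.13 through 11.44 to 11.59 in Ogg1-/- livers, a difference of -0.55 (SE 0.13, 1.46-fold lower, limma adjusted p = 0.00561). The genotypes did not overlap in either gene. The other Bnip3l probe set differed by -0.53 (limma adjusted p = 0.00648). Bnip3, the paralog of Bnip3l, had a difference of 0.13 (SE 0.08, limma adjusted p = 0.312), and Fundc1, a receptor that acts in low oxygen, had 0.14 (SE 0.09, limma adjusted p = 0.308). The other Bnip3 probe set differed by 0.08 (limma adjusted p = 0.627).

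Both transcription factor genes of the list rose. Tfeb ran from 6.87 through 6.95 to 7.22 in WT livers on the HFD and from 7.33 through 7.45 to 7.61 in Ogg1-/- livers. The groups did not overlap, and the difference of 0.46 (SE 0.10, 1.38-fold higher, limma adjusted p = 0.00364) had the smallest adjusted p of the 42 genes. Tfe3 ran from 7.96 through 8.10 to 8.33 in WT and from 8.27 through 8.42 to 8.68 in Ogg1-/- livers, a difference of 0.34 (SE 0.11, limma adjusted p = 0.0275) whose call was lost without any of 6 of the HFD arrays. Its groups overlapped in part. On chow the differences of Tfeb and Tfe3 were 0.36 and 0.35 with adjusted p of 0.102 and 0.135 in limma. These are RNA levels, and TFEB and TFE3 are known to be controlled largely by where their proteins reside in the cell, which the arrays do not measure.

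**Figure D2:**
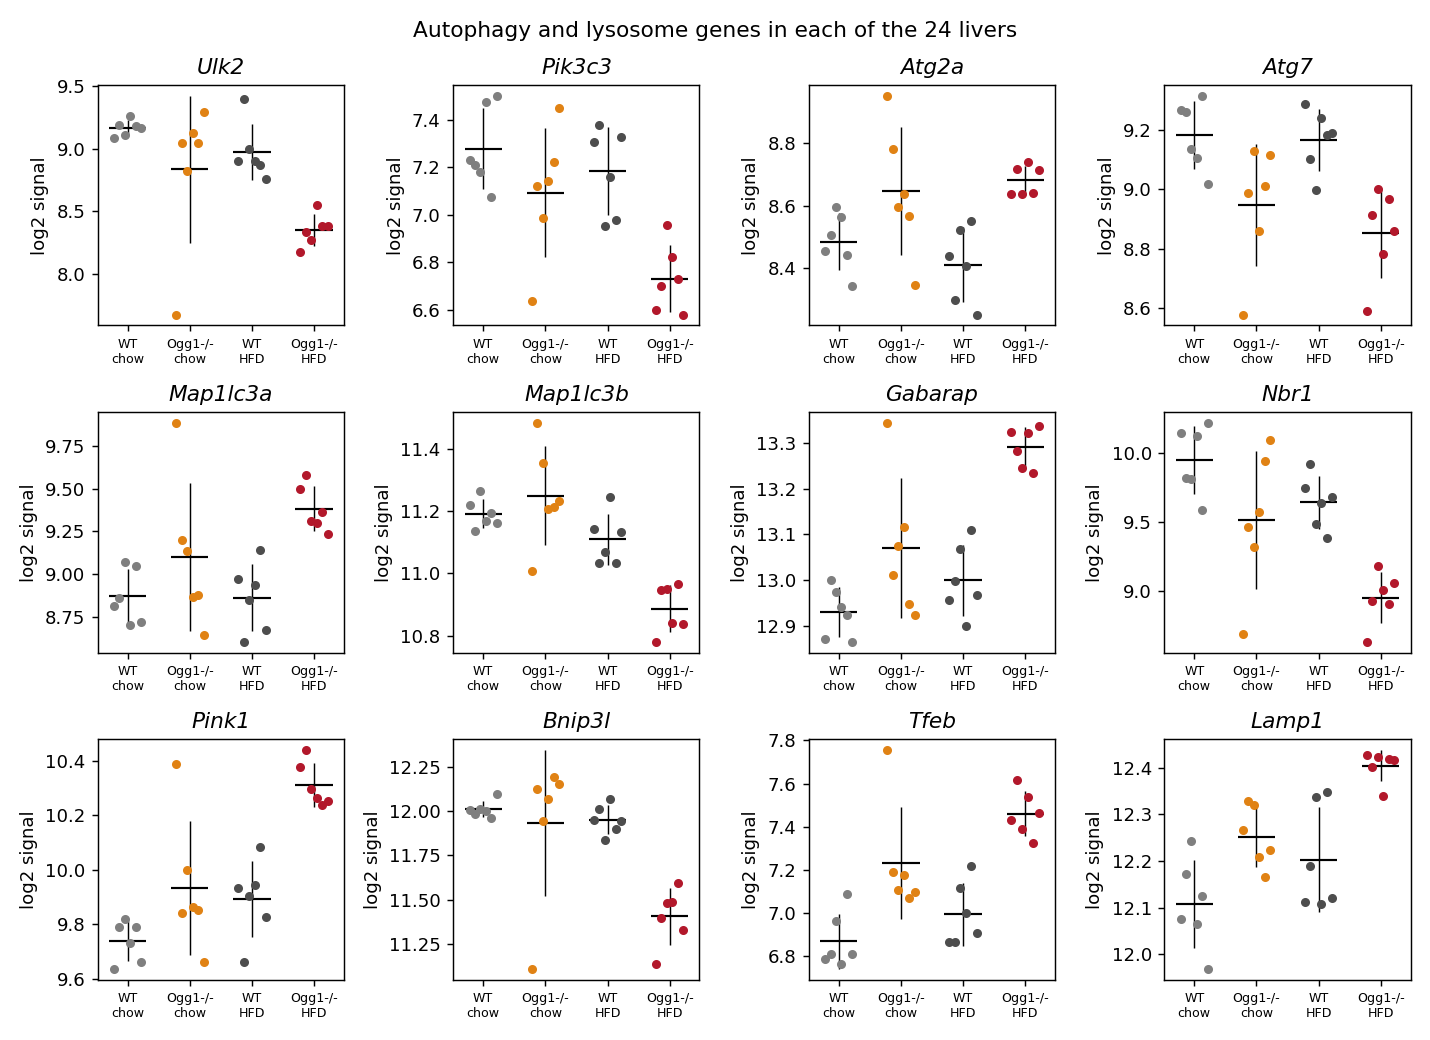
The log2 signal (vertical axes, not starting at 0) of 12 genes in each of the 24 livers, by genotype and diet, with lines for the group mean and the standard deviation, 6 livers per group. Ulk2, Nbr1 and Bnip3l in Ogg1-/- livers on the HFD lie below all WT livers on the HFD, Gabarap, Pink1 and Tfeb lie above, and the single distant point among the Ogg1-/- chow livers of Ulk2, Bnip3l and Tfeb is replicate 1.

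Of the 6 lysosomal genes, only Lamp1 passed. LAMP1 is an abundant glycoprotein of the lysosomal membrane. Its gene ran from 12.11 through 12.15 to 12.35 in WT livers on the HFD and from 12.34 through 12.42 to 12.43 in Ogg1-/- livers, a difference of 0.20 (SE 0.06, 1.15-fold higher, limma adjusted p = 0.0166), which did not pass after quantile normalization (adjusted p = 0.0797). The lowest Ogg1-/- liver lay just under the highest WT liver. Lamp2, the gene of the related membrane protein, had -0.34 (SE 0.16, limma adjusted p = 0.138). The proteases Ctsb, Ctsd and Ctsl had -0.05, 0.25 and -0.04, of which the value of Ctsd had the smallest adjusted p (0.0741, limma). Lipa, the gene of lysosomal acid lipase, had -0.16 (SE 0.12, limma adjusted p = 0.395).

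TFEB and TFE3 bind a form of the E-box, CACGTG, that is common in promoters of lysosomal genes and is often flanked as GTCACGTG, called here the flanked form. RefSeq promoter windows on GRCm38.p6, from 250 bases before to 50 after each transcript start, were found for 34 of the 42 genes. The E-box reads the same on both strands, the flanked form was sought on both, and every flanked form also counts as an E-box. An E-box stood in the windows of 8 of the 34 genes (23.5%), against 8.09% of all genes with a window, and the flanked form in 5 (14.7%), against 2.55%. The median share of G and C bases was 59.3% in the windows of the 34 genes and 52.7% in all windows. The comparison was not matched for this share. Among the genes that passed as higher on the HFD, 1 of 11 with a window had an E-box (Lamp1), among those that passed as lower 2 of 7 did (Atg5 and Atg7), and among those that did not pass 5 of 16 did (Atg14, Atg3, Bnip3, Ctsd and Ctsl). Tfeb and Tfe3 themselves had none. The windows of Lamp1, Ctsd and Atg7 are printed 5′ to 3′, because they hold the flanked form and belong to a gene that rose, a gene that did not pass and a gene that fell. Capitals mark the E-boxes, with the flanking bases where the flanked form is present.
Lamp1 promoter, chr8:13158911-13159210, plus strand: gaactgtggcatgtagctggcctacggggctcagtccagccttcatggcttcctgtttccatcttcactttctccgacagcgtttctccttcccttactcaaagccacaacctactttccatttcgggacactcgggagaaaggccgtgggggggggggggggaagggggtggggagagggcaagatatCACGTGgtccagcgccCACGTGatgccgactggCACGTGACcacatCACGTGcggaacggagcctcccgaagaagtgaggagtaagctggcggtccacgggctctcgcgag
Ctsd promoter, chr7:142387778-142388077, minus strand: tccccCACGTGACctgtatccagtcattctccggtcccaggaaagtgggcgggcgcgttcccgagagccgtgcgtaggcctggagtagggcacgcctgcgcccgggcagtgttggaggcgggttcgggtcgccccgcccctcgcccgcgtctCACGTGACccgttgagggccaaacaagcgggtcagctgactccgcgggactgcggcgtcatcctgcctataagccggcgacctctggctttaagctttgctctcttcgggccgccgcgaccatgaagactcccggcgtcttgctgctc
Atg7 promoter, chr6:114670846-114671145, plus strand: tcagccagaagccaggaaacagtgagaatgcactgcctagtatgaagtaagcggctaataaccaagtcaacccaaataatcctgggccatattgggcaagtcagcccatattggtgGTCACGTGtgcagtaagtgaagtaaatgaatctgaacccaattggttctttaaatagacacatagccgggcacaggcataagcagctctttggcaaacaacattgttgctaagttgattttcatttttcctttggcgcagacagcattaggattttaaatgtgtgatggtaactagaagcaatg
The Lamp1 window holds 4 E-boxes, which begin at positions -61, -45, -28 and -15 relative to the start site, and that of Ctsd holds 2, at -245 and -98. A match describes these letters, and binding of either factor was not measured.

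On chow, 0 of the 42 genes passed between the genotypes in limma, and 15 had an unadjusted p under 0.05, where 0.478% of all probe sets passed. The differences ran from -0.44 (Nbr1) to 0.37 (Ulk1), with a median of 0.05, and without Ogg1-/- chow replicate 1 from -0.27 (Nbr1) to 0.30 (Bnip3). Only Lipa had groups that did not overlap, at 11.83 to 11.99 in WT and 11.06 to 11.82 in Ogg1-/- livers (difference -0.35, SE 0.12, limma adjusted p = 0.154), whereas 1.06% of all probe sets did not overlap. Leaving out Ogg1-/- chow replicate 6 brought 4 genes past the threshold, Ulk1 (0.43), Tfeb (0.39), Tfe3 (0.41) and Pik3r4 (-0.29), with adjusted p of 0.0281, 0.0451, 0.0419 and 0.0438 in limma. In that fit 1041 of all 35556 probe sets passed on chow, against 170 with all arrays. Leaving out any other array left the count of the 42 genes at 0. All 6 WT chow arrays and 0 Ogg1-/- arrays carry the label suffix fr, whose meaning is not given. On chow, genotype and this suffix therefore cannot be told apart.

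Between HFD and chow in WT livers, 0 of 42 passed in limma and 5 had an unadjusted p under 0.05, where 0.925% of probe sets passed. Atg10, a conjugating enzyme for ATG12, and Bnip3 had WT diet groups that did not overlap, with differences of 0.24 in each (limma adjusted p = 0.266 and 0.194), against 2.25% of all probe sets.

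In Ogg1-/- livers, 8 of 42 genes passed between the diets, 2 higher and 6 lower on the HFD, and 20 had an unadjusted p under 0.05. Over all probe sets 4.58% passed as higher and 4.94% as lower. Map1lc3b fell. It ran from 11.01 through 11.22 to 11.48 on chow and from 10.78 through 10.89 to 10.97 on the HFD, with no overlap and a difference of -0.36 (SE 0.07, limma adjusted p = 0.00192). Rb1cc1 (-0.77), Nbr1 (-0.56), Bnip3l (-0.53), Atg2b (-0.45) and Pik3c3 (-0.36) were also lower, with adjusted p between 0.0125 and 0.0432 in limma, and Pink1 (0.38, adjusted p = 0.0118) and Gabarap (0.22, adjusted p = 0.0275) were higher. Of these Rb1cc1 alone passed with a fold of at least 1.5, where 3.11% of probe sets did. Map1lc3b and Lamp1 were the genes without overlap between the diets, against 2.4% of all probe sets. This comparison shares the Ogg1-/- HFD livers with the genotype comparison on the HFD. It depended on single arrays: 19 genes passed without Ogg1-/- chow replicate 1, and between 3 and 4 passed without any of replicates 2, 4, 5 or 6 of Ogg1-/- on chow, or of replicates 1, 2, 5 or 6 of Ogg1-/- on the HFD. The count over all 35556 probe sets moved too. It was 9035 without Ogg1-/- chow replicate 1 and 1351 to 2871 without those other arrays, against 1630 higher and 1758 lower with all arrays. When the 12 Ogg1-/- arrays were fitted alone, Map1lc3b was the only gene of the 8 that still passed, and the other 7 had limma adjusted p from 0.0716 to 0.128. By the methods' t-test with the same adjustment, Map1lc3b was again the only gene of the 8 that passed. Lamp1, which had not passed in the main fit, passed as higher (0.15, t-test adjusted p = 0.0374).

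The genotype difference on the HFD was set against that on chow by the interaction term of the same fit. None of the 42 genes passed in limma, 2 had an unadjusted p under 0.05, and 0.00281% of all probe sets passed. The genotype differences on the HFD are therefore not shown to differ from those on chow. The smallest unadjusted p belonged to Map1lc3b, whose genotype difference was 0.06 on chow and -0.22 on the HFD (interaction -0.28, SE 0.09, limma adjusted p = 0.532), followed by Bnip3l, with -0.08 on chow and -0.55 on the HFD (interaction -0.47, SE 0.18, limma adjusted p = 0.621). Without Ogg1-/- chow replicate 1, Ulk2 (-0.52), Map1lc3b (-0.33) and Bnip3l (-0.63) passed in the interaction, with adjusted p of 0.045, 0.0437 and 0.0123 in limma. In that fit 539 of all 35556 probe sets passed in the interaction, against 1 with all arrays.

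Each liver was also given a score on the main axis of variation among livers of the same group. The axis is the first principal component of all probe sets within the chow groups, after each group's mean was taken away, and it holds 40.2% of that variation. Ogg1-/- chow replicate 1 scored 80.9 on it, above the range of 18.5 to 54.8 in Ogg1-/- livers on the HFD, -20.7 to 10.4 in WT livers on the HFD and -46.1 to -6.51 in WT livers on chow. The HFD groups thus did not overlap on this score. The other 5 Ogg1-/- livers on chow scored from -42.1 to 7.74, and they overlapped the WT livers of both diets. Ogg1-/- chow replicate 1 was set against the mean of the other 5 livers of its group. The sign of this deviation was that of the HFD genotype difference in 21 of the 22 genes that passed on the HFD. The same held for 15 of the 20 genes that did not pass, for 92.8% of all probe sets that passed on the HFD and for 65% of those that did not. Replicate 1 is itself 1 of the 12 chow arrays from which the axis was computed. With the score as a covariate, all 22 genes kept their sign, all had smaller differences, and none passed, with limma adjusted p from 0.0699 to 0.777. Their median size went from 0.37 to 0.17 on the log2 scale, and 963 probe sets passed in all. In that fit Atg14 alone among the 42 genes passed on the HFD, at 0.38 (limma adjusted p = 0.0144), against -0.09 without the covariate. The score is computed from the same arrays and moves with genotype on the HFD. What the axis stands for was not tested.

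**Figure D3:**
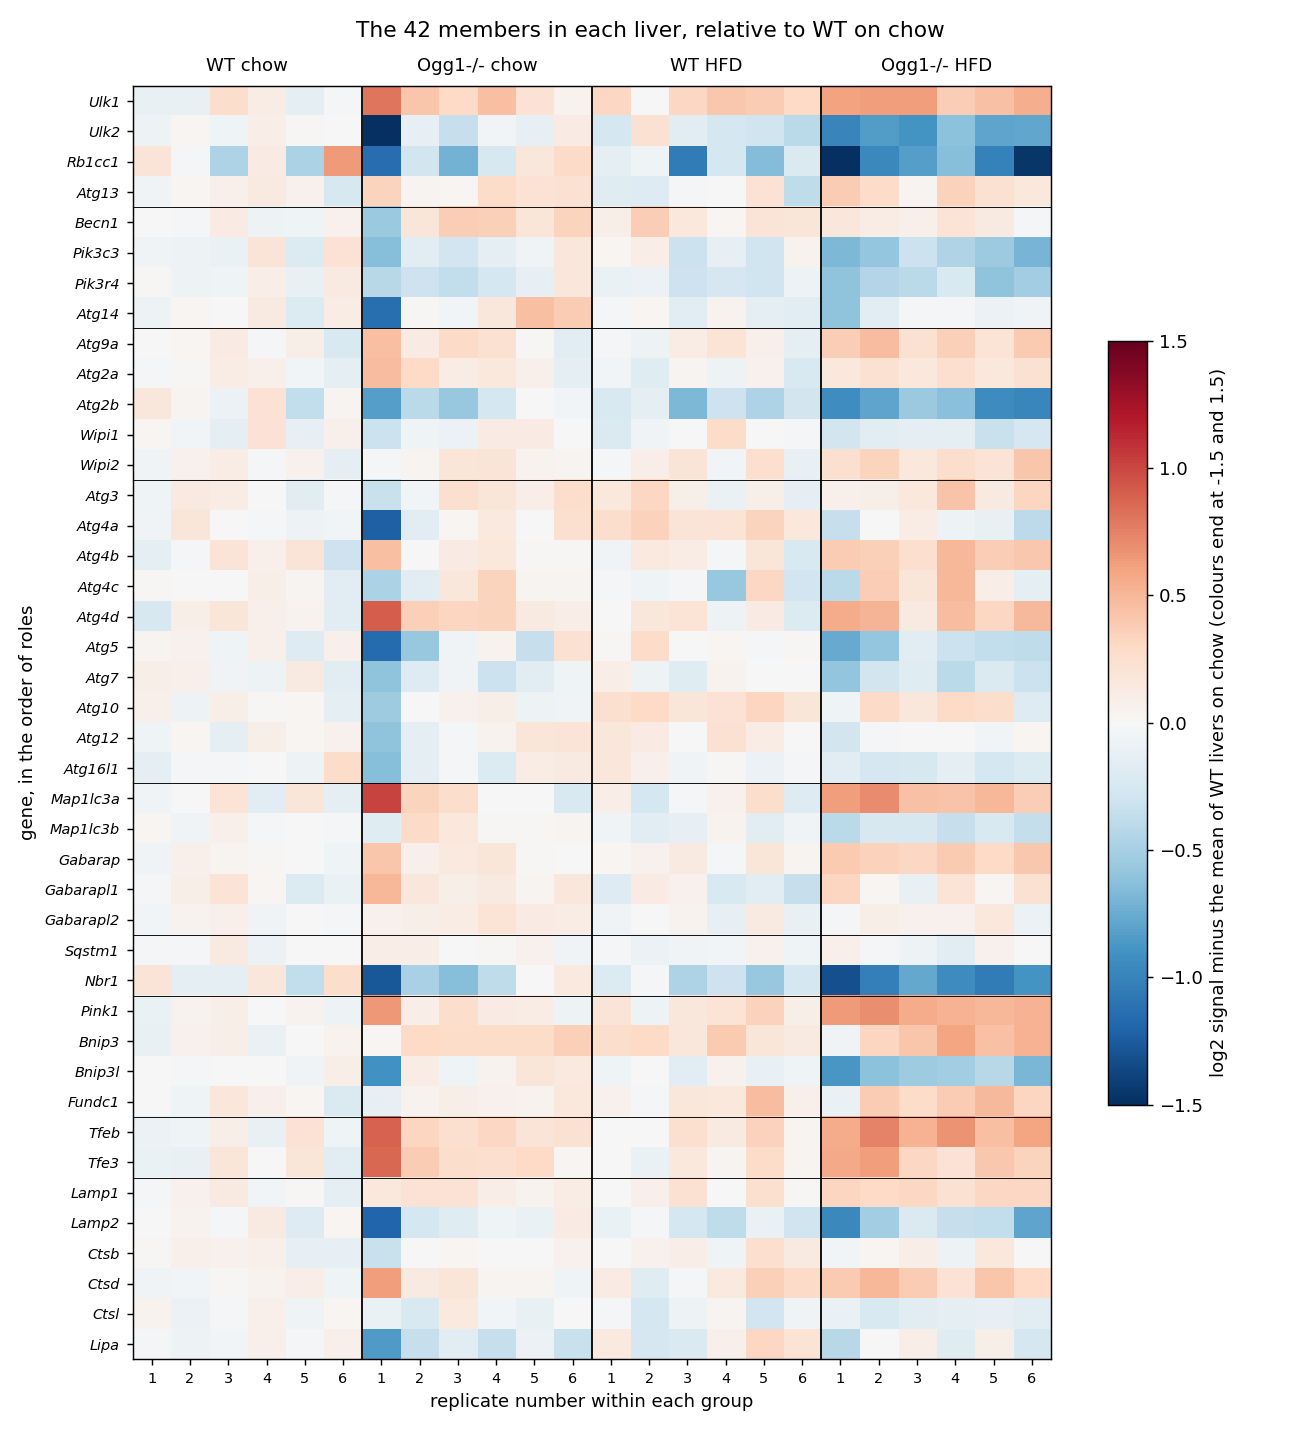
The log2 signal of each of the 42 genes (rows, in the order of roles, separated by lines) in each of the 24 livers (columns), minus the mean of the 6 WT livers on chow. Ulk2, Rb1cc1, Atg2b and Nbr1 are the darkest blue rows among the Ogg1-/- livers on the HFD, and the first Ogg1-/- chow column, replicate 1, has the strongest colours of its group.

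**Figure D4:**
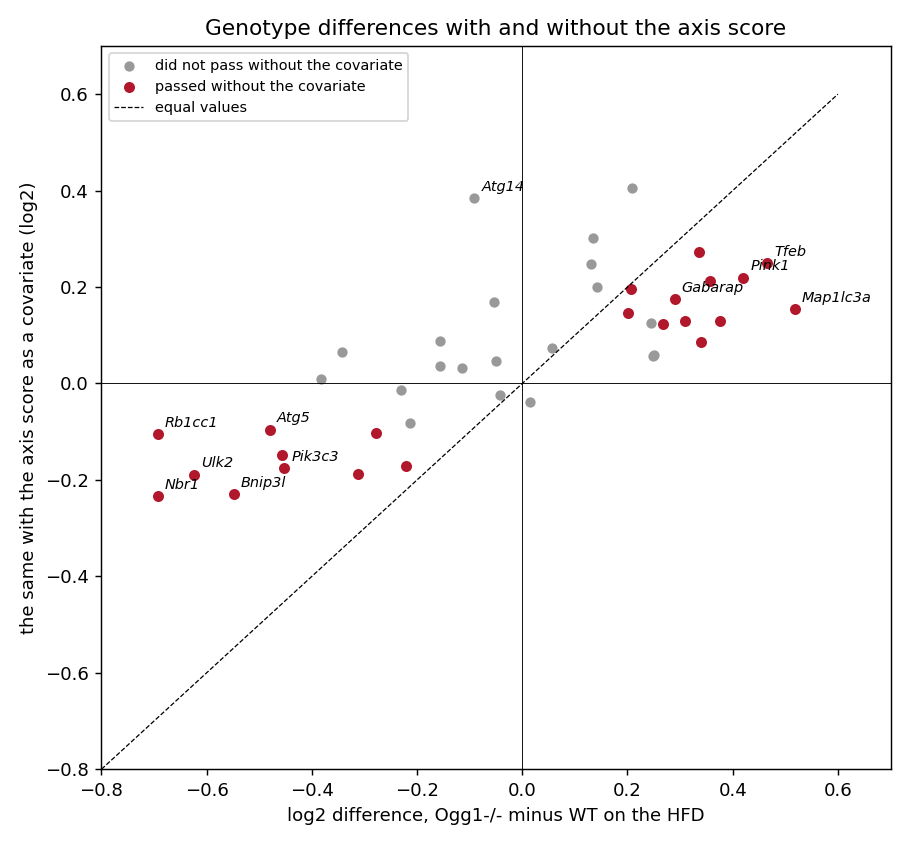
The log2 difference between Ogg1-/- and WT livers on the HFD of the 42 genes (horizontal axis) against the same difference with the axis score as a covariate (vertical axis); the dashed line marks equal values. The 22 genes that passed without the covariate (red) all keep their sign and all lie closer to 0 with it.

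Other genes of the pathway were counted from further lists. Over all genes, with 1 probe set per gene, 11.9% passed as higher and 11.8% as lower on the HFD. On chow 0.478% of all probe sets passed in either direction. Of 26 other genes of the autophagy core and of fusion with the lysosome, 2 rose, 9 fell and 15 did not pass on the HFD. Vps41 and Vps39, subunits of the HOPS complex that tethers the autophagosome to the lysosome, fell by most. Vps41 ran from 7.83 through 8.90 to 9.07 in WT and from 7.11 through 7.48 to 7.58 in Ogg1-/- livers, a difference of -1.27 (SE 0.28, 2.41-fold lower, limma adjusted p = 0.00439), and Vps39 differed by -0.80 (limma adjusted p = 0.00109). With the axis score as a covariate, 1 gene of this list passed, as lower.

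Of 19 other receptors for cargo and mitochondria, 7 rose and 6 fell. Ncoa4, the receptor that delivers ferritin to the lysosome, ran from 9.36 through 10.03 to 10.23 in WT and from 8.63 through 8.88 to 9.39 in Ogg1-/- livers, a difference of -0.99 (SE 0.19, 1.98-fold lower, limma adjusted p = 0.00244), and Tax1bp1, a ubiquitin receptor, differed by -0.86 (limma adjusted p = 0.0225), a call lost without WT HFD replicate 1 or 6 or Ogg1-/- HFD replicate 1 (adjusted p from 0.0551 to 0.066). On chow only Stbd1, a glycogen-binding receptor, passed in this list, 0.54 higher in Ogg1-/- livers without overlap (SE 0.08, limma adjusted p = 0.0015), a call that was lost with the 12 chow arrays alone (adjusted p = 0.0602) and by the methods' t-test (0.115). On the HFD Stbd1 had 0.11 (limma adjusted p = 0.42).

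Of the 16 measured subunits of the V-ATPase, the proton pump that acidifies the lysosome, 5 rose and 4 fell. Atp6v1c1 and Atp6v1a, of the part that splits ATP, differed by -0.73 and -0.70 (limma adjusted p = 0.00802 and 0.00337). Atp6ap2, an accessory subunit, was higher in Ogg1-/- livers by 0.35 on chow and 0.32 on the HFD (limma adjusted p = 0.0336 and 0.00603), with no overlap in either diet. The chow call of Atp6ap2 did not hold with the replicate number as a block, the 12 chow arrays alone, the methods' t-test or the axis covariate (adjusted p from 0.0718 to 0.116), nor without any of 7 of the 12 chow arrays (0.0608 to 0.096).

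Other lysosomal hydrolases rose more often than they fell on the HFD, with 13 of 32 measured genes higher, 3 lower and 16 not passing, and a median difference of 0.22 beside 0.03 over all genes. The tilt was similar on chow, where 1 passed, as higher. Differences were positive in 26 and negative in 6 on chow, and positive in 24 and negative in 8 on the HFD. The chow median was 0.17, beside 0.03 over all genes. In the interaction 0 hydrolases passed, with a median of 0.03. Arsa, the gene of the sulfatide-degrading enzyme arylsulfatase A, ran from 8.43 through 8.66 to 9.00 in WT and from 9.19 through 9.36 to 9.49 in Ogg1-/- livers on the HFD, a difference of 0.63 (SE 0.11, 1.55-fold higher, limma adjusted p = 0.00126), and it also passed on chow (0.52, limma adjusted p = 0.0212). The chow call was lost without Ogg1-/- chow replicate 1, 2 or 3 or WT chow replicate 1, 4 or 6 (adjusted p from 0.0551 to 0.0652), and with the 12 chow arrays alone, the methods' t-test or the axis covariate (0.0713 to 0.227). Ctsc, the gene of a dipeptidyl protease, had the largest fall, -0.64 (SE 0.16, limma adjusted p = 0.00727). With the axis score as a covariate 1 hydrolase passed, and the median difference was 0.10. Without Ogg1-/- chow replicate 1, 15 hydrolases rose and 5 fell on the HFD.

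Of 22 other genes of the lysosomal membrane and of transport to the lysosome, 6 rose and 3 fell. Sort1, a sorting receptor, differed by -0.62 (limma adjusted p = 0.00572), and Mfsd8, matched under its alias Cln7, the gene of a lysosomal membrane transporter, by -0.46 (limma adjusted p = 0.0408), a call lost without any of 8 of the 12 HFD arrays (adjusted p from 0.0539 to 0.108). Of 26 genes that regulate mTORC1 or TFEB, 6 rose and 8 fell. Deptor, the gene of an mTOR-binding inhibitor, ran from 9.63 through 10.13 to 10.37 in WT and from 8.91 through 9.23 to 9.43 in Ogg1-/- livers, a difference of -0.84 (SE 0.19, 1.79-fold lower, limma adjusted p = 0.00491). Fnip1, a partner of folliculin, which controls TFEB and TFE3 at the lysosome, differed by -0.83 (limma adjusted p = 0.0138). On chow Lamtor3, of the scaffold that holds mTORC1 at the lysosome, had 0.24 (limma adjusted p = 0.0485), a call that was lost without any of 21 of the 24 arrays and in 7 other settings, among them the replicate block (adjusted p = 0.0851).

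With the axis score as a covariate the numbers of genes higher and lower on the HFD were 0 and 1 of the 26 core and fusion genes, 0 and 2 of the 19 receptors, 0 and 1 of the 16 V-ATPase subunits, 1 and 0 of the 22 membrane and transport genes, and 2 and 1 of the 26 mTORC1 and TFEB regulators. Without Ogg1-/- chow replicate 1 the same numbers were 4 and 9, 7 and 6, 6 and 6, 7 and 4, and 9 and 10.

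**Figure D5:**
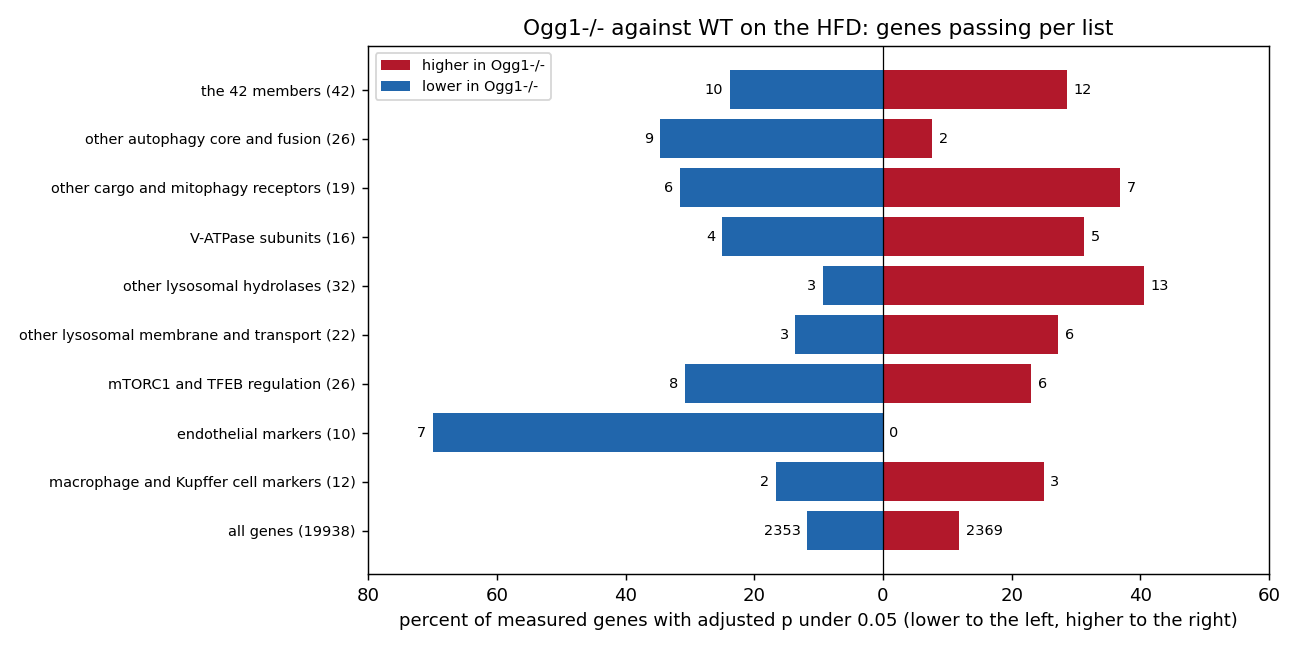
The percent of measured genes that passed as lower (blue, to the left) or higher (red, to the right) in Ogg1-/- against WT livers on the HFD, for the 42 genes, further lists of the pathway, 2 lists of cell type markers and all 19938 genes, with the number of genes beside each bar and the number measured in brackets. The other lysosomal hydrolases have 13 genes higher and 3 lower, and the endothelial markers have 7 lower and 0 higher.

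In whole liver, fewer cells of a type and less RNA per cell cannot be told apart. Over all genes 11.9% passed as higher and 11.8% as lower on the HFD, beside which the marker counts stand. Of the endothelial markers, 7 of 10 fell and 0 rose on the HFD, and their summed linear signal was 4166 to 4718 in Ogg1-/- livers, below the 5355 to 6240 in WT livers without overlap. With the axis score as a covariate 0 endothelial markers passed, and their median difference was -0.28, against -0.50 without it. Macrophage and Kupffer cell markers, whose cells are rich in lysosomes, had 3 of 12 higher and 2 lower, with sums of 7573 to 9395 in Ogg1-/- and 7280 to 9358 in WT livers, which overlapped. Stellate cell markers had 2 of 10 lower, with sums of 3871 to 6184 in Ogg1-/- and 5744 to 7949 in WT livers, which overlapped. Among the rest, hepatocyte markers had 1 of 9 lower, lymphocyte markers 1 of 9 higher and 1 lower, and cholangiocyte markers 0 of 5. No source used here gives the hour at which livers were collected. Of 7 measured clock genes, 4 were higher and 2 lower in Ogg1-/- livers on the HFD, with summed signals of 7046 to 8648 against 3944 to 5565 in WT livers. With the covariate 4 were higher and 1 lower. On chow the clock sums were 6969 to 8721 and 4541 to 5453. With the covariate the macrophage list had 0 higher and 1 lower, and no stellate, hepatocyte, lymphocyte or cholangiocyte marker passed. The part of these markers and of the clock genes in the differences of the autophagy genes was not tested.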

How the data were processed

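RNA of 24 livers, 125 ng each, was labelled and hybridised to Mouse Gene ST arrays. The authors deposited log2 signals per probe set, from 1.81 to 14.8. RMA, robust multiarray averaging, is the method in the submitters' processing notes, whereas the methods name GC-RMA for the published counts, so the exact background model of the deposited values is not settled here. Array medians were 5.90 to 5.97. No source used here names the genome build behind the annotation.

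From these values, with no filter, 1 model of the 4 groups was fitted to all 35556 probe sets by lmFit and eBayes of limma 3.58.1 under R 4.3.3, and p-values were adjusted by Benjamini and Hochberg. Of the probe sets, 21789 have a single symbol in the platform annotation, 1621 have several and 12146 are not named here. The 44 genes, the further lists and the markers were chosen with earlier results of these data known. Every gene of the 42 that passed in a comparison is named with values, and of each further list the 2 genes that passed between genotypes with the largest change. Mfsd8 was found through an alias. Alternatives were a replicate block, median centring, quantile normalization, omission of probe sets with a mean under 5, array weights, a trended robust prior, the 12 arrays of each comparison alone, the methods' t-test, the mean over probe sets, a fold of at least 1.5, the axis score as a covariate, and omission of each array in turn. Same-numbered replicates were not paired by their residuals (36 correlations from -0.27 to 0.43, median -0.03). The label suffix fr stands on all 6 WT chow arrays and on WT HFD replicate 5 and on 0 Ogg1-/- arrays, and its meaning is not given. On chow it cannot be told apart from genotype, and in WT livers it goes with diet in all but that HFD array. The interaction uses the same WT chow arrays. With 6 arrays per group, their number limits the precision. The qPCR and physiological measurements of the study were not analysed here.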

Additional observations from a re-analysis of the deposited data

Results flagged for a closer look

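In 26 of 168 sets of 6 livers (15.5%), 1 liver lay far from the other 5 by Dixon's test, where chance flags about 1 in 20. Ogg1-/- chow replicate 1 accounted for 15 of them. It was the low liver for Ulk2 (7.67), Becn1 (8.24), Atg14 (6.62), Atg4a (6.97), Atg10 (7.50), Bnip3 (11.2), Bnip3l (11.1), Lamp2 (11.3), Ctsb (11.5) and Lipa (11.1), and the high liver for Atg4b (8.59), Atg4d (8.56), Gabarapl1 (12.5), Tfeb (7.75) and Ctsd (12.2), all as log2 signals. WT HFD replicate 2 was low for Ulk1 (9.34) and high for Ulk2 (9.40) and Atg5 (9.01). Ogg1-/- HFD replicate 1 was low for Atg14 (7.14), Atg12 (7.76) and Fundc1 (8.15). WT chow replicate 6 was low for Atg4c (7.25) and high for Atg16l1 (8.01) and Bnip3l (12.1). WT chow replicate 2 was high for Atg4a (8.38), and Ogg1-/- HFD replicate 4 was low for Lamp1 (12.3). WT HFD replicate 5, which carries the label suffix of the WT chow arrays, was the lowest or highest WT liver on the HFD for 22 of the 42 genes. The other WT HFD arrays were so for 3 to 21 genes, and Ogg1-/- HFD replicate 1 was so in its own group for 22. Without WT HFD replicate 5, 23 genes passed on the HFD, and 6920 of all probe sets did. In 0 genes did the livers of each diet separate by genotype in opposite directions. On chow only Lipa separated by genotype, and it did not on the HFD, so that this count says nothing about direction.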

How the results depend on the processing

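Of the 22 genes that passed on the HFD, all 22 also passed in the same direction under the replicate block, median centring, omission of dim probe sets, array weights, the trended robust prior and the mean over probe sets, 21 under quantile normalization, the 12 arrays alone and the methods' t-test, and 0 with the axis covariate, where 1 gene passed, Atg14, with its sign turned to 0.38 on the log2 scale. At a fold of at least 1.5, 3 passed. Numbers of genes passing with the replicate block (not a paired design) were 0 for genotype on chow, 23 for genotype on the HFD, 0 and 8 for diet in WT and in Ogg1-/- livers, and 0 for the interaction. With 1 array left out, between 15 and 29 genes passed on the HFD, 0 to 4 on chow, 3 to 19 for diet in Ogg1-/- livers, 0 for diet in WT livers and 0 to 3 in the interaction. Over all probe sets 4855 to 9215, 87 to 1041, 1351 to 9035, 155 to 677 and 1 to 539 passed, in the same order. The diet count in Ogg1-/- livers was 18 with array weights, 1 with the 12 arrays alone, 2 by the methods' t-test, 5 with the axis covariate and 1 at a fold of at least 1.5. Over all probe sets 8189, 963, 576, 1692 and 1107 passed, in the same order. The diet count in WT livers was 1 by the methods' t-test (Atg10) and 3 with the axis covariate (Atg4a, Atg12 and Bnip3), where 384 and 699 of all probe sets passed. In the interaction 1 gene passed with array weights (Bnip3l), where 23 of all probe sets passed. The cause of these changes was not tested.

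Calls on the HFD that were lost without a single array were those of Rb1cc1 (without WT HFD replicates 1, 2, 4 or 6 or Ogg1-/- HFD replicates 1, 2, 5 or 6, adjusted p 0.0545 to 0.112), Pik3r4 (WT 1, 2 or 6 or Ogg1-/- 1, 5 or 6, 0.0566 to 0.0734), Wipi2 (WT 1, 4 or 6 or Ogg1-/- 1, 2, 4 or 6, 0.0518 to 0.0945), Atg4d (WT 4 or 6 or Ogg1-/- 1 or 2, 0.0504 to 0.0633), Atg5 (WT 1, 2, 4 or 6 or Ogg1-/- 1, 2 or 6, 0.0501 to 0.0898), Tfe3 (WT 1, 2, 4 or 6 or Ogg1-/- 1 or 2, 0.0501 to 0.0714), and Atg2a and Map1lc3b as given with them.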
